A study of Mus musculus with 4 samples.

Results

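The S100 genes described here are 10 members of a family of small calcium-binding proteins: S100a1, S100a4, S100a6, S100a8, S100a9, S100a10, S100a11, S100a13, S100a14 and S100a16. They were chosen by gene symbol, and all 10 had a row among the 21878 rows of the 4 deposited tables. The libraries came from mouse liver progenitor-like cells, a growing state that adult liver cells enter in transition and expansion media, and 2 were made from cells of hepatocyte origin (HepLPC) and 2 from cells of non-parenchymal origin (NPC_LPC). The labels give C57BL/6 mice aged 6 to 8 weeks, while the protocol text gives an age of 8 weeks. The protocol lists 2 lineage-tracing models, tdTomato mice given AAV8-TBG-Cre for hepatocytes and AlbCreERT/R26GFP mice for non-parenchymal cells. AAV8-TBG-Cre is a virus whose liver-specific promoter drives Cre recombinase in hepatocytes, and AlbCreERT puts an inducible Cre under albumin gene control. If each model served its listed cell type, mouse line and virus follow the group, and their effects cannot be told apart from that of origin. The cell type label of HepLPC mentions non-parenchymal cells beside hepatocytes, and groups were therefore taken from the titles.

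S100 proteins are built around a pair of EF-hands, the helix-loop-helix motifs that hold a calcium ion. Most work as dimers that open on binding calcium and then grip a target protein, and the annexins, which bind membranes, are the best known of these targets. Some members are also secreted and act on receptors at the cell surface. In liver, S100a8 and S100a9 are used as marks of neutrophils and monocytes, and S100a4 of fibroblasts and some macrophages. S100a6 and S100a11 are more abundant in bile duct cells than in hepatocytes.

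Total counts ran from 17575998 to 20625957 per library. Levels in CPM are counts relative to library size after scaling by TMM factors, which correct for differences in library composition, and 3 counts corresponded to 0.149 to 0.169 CPM. The hepatocyte marker Alb was at or below 2.28 CPM in all 4 libraries, while Apob ran from 1470 to 4723 CPM. The biliary marker Epcam was at or below 1.75 CPM. Fold changes are HepLPC over NPC_LPC from edgeR's quasi-likelihood test over 12332 genes, with p-values adjusted by the Benjamini-Hochberg method and a threshold of 0.05. The labels do not say whether replicates are separate animals or separate cultures, and p-values measure only the spread between these libraries. In bulk samples, fewer cells that express a gene and less RNA per cell cannot be told apart.

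As a sum, S100 transcripts were higher in both HepLPC libraries than in both NPC_LPC libraries, a description with no test. Nearly all of the sum came from 3 genes. The 10 members summed to 2888 and 3907 CPM in replicates 1 and 2 of HepLPC, against 1753 and 1952 CPM in the NPC_LPC pair. S100a11, S100a6 and S100a10 held 95.0% to 96.1% of the member counts in every library. Levels of different genes were compared by FPKM, which scales counts by transcript length. On that scale 7 members stood in 1 order in all 4 libraries: S100a11, S100a6, S100a10, S100a1, S100a13, S100a16 and S100a4. Within each group the lower of the 2 values of each of these genes stayed above the higher value of the next. S100a8, S100a9 and S100a14 lay below them at or near 0.

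**Figure D1:**
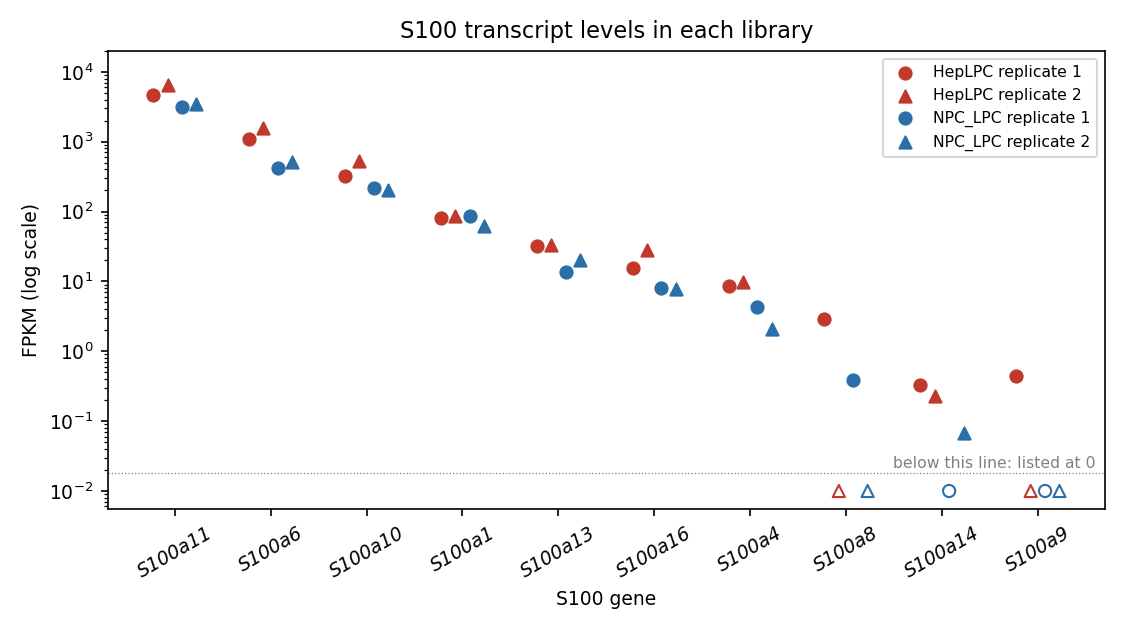
FPKM on a log axis for the 10 S100 genes, 1 point per library, red for HepLPC and blue for NPC_LPC, with open symbols for values listed at 0. S100a11 reaches 6364 FPKM in HepLPC replicate 2, S100a1 has overlapping groups, and S100a8, S100a9 and S100a14 sit at the bottom.

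Between the origins, 7 of the 10 members had enough counts for the edgeR test, and S100a8, S100a9 and S100a14 did not. edgeR called 0 of the 7 at the adjusted threshold, where it called 0.430% of all tested genes, 0.227% higher in HepLPC and 0.203% lower. At an unadjusted p under 0.05 it had 4 members higher in HepLPC and 0 lower, against 10.4% and 11.5% of all genes. DESeq2, a second count test, called 3 members higher (S100a6, S100a10 and S100a16) and 0 lower, against 5.39% and 6.27% of all genes. Limma-voom called 0 members, where it called 2 genes higher and 3 lower of 12332. Limma on log2 FPKM also called 0 members. With a pseudocount of 1 or 0.1 it called 0 and 1 genes higher and 0 lower, of 15568. With a pseudocount of 1 and a mean FPKM of at least 0.5 it called 59 higher and 52 lower of 11062. The fitted fold change was above 0 in all 7, with a median of 1.13 on the log2 scale. Over all tested genes 49.8% were above 0 and the median was -0.003. In 6 of the 7 both HepLPC libraries lay above both NPC_LPC libraries, as they did in 27.9% of all tested genes, and in 0 both lay below, against 28.6%.

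S100a11, also called calgizzarin, binds annexin A1 and takes part in growth control of epithelial cells. Its level was 4717 and 6364 FPKM in HepLPC replicates 1 and 2 and 3155 and 3446 FPKM in those of NPC_LPC. By FPKM it was the top-ranked gene of both HepLPC libraries, above the translation factor gene Eef1a1, and ranked 5 and 3 in NPC_LPC replicates 1 and 2, where B2m was first. The messenger RNA is short, and the rank depends on the scale. By count, without length, S100a11 ranked 22 and 17 in HepLPC and 49 in each NPC_LPC library. In CPM it was at 1909 and 2495 in HepLPC and at 1298 and 1438 in NPC_LPC, so the groups did not overlap and the fold of the means was 1.61. On the log2 scale the fold change was 0.69 (SE 0.29, edgeR adjusted p = 0.238, DESeq2 adjusted p = 0.116), and neither test called it.

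S100a6, or calcyclin, was first found as a transcript of growth-stimulated cells and binds the ubiquitin ligase adaptor encoded by Cacybp. It had the highest fold change of the tested members. S100a6 was at 615 and 884 CPM in replicates 1 and 2 of HepLPC, against 244 and 296 CPM in the NPC_LPC pair, 2.77-fold higher by the means. Both HepLPC libraries stood above both NPC_LPC libraries. The log2 fold change was 1.47 (SE 0.30), with an edgeR adjusted p of 0.0847 and a DESeq2 adjusted p of 0.000234. Leaving out each library in turn, edgeR did not call S100a6 in any fit. DESeq2 called S100a6 every time. It called 3 members without HepLPC replicate 1 and 1 member without each of the other libraries. The shares of all genes called higher in those fits were 2.49% without HepLPC replicate 1, 2.54% without HepLPC replicate 2, 3.71% without NPC_LPC replicate 1 and 3.29% without NPC_LPC replicate 2. These DESeq2 fits were added after seeing the data, and each leaves 1 library in a group. Over left-out fits with edgeR or DESeq2 the log2 fold change of S100a6 lay between 1.19 and 1.72. S100a6 ranked 23 and 14 by FPKM in HepLPC replicates 1 and 2 and 75 and 66 in those of NPC_LPC.

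S100a10 is the member that lost calcium binding and stays in its open form, joined to annexin A2 at the plasma membrane, where the pair can bind plasminogen. It was at 243 and 378 CPM in replicates 1 and 2 of HepLPC, against 124 and 142 CPM in the NPC_LPC pair, 2.33-fold higher by the means. The groups did not overlap, and the HepLPC libraries were further apart than the NPC_LPC libraries. On the log2 scale the fold change was 1.22 (SE 0.30, edgeR adjusted p = 0.112, DESeq2 adjusted p = 0.00659). DESeq2 called S100a10 without HepLPC replicate 1, but not without HepLPC replicate 2 (adjusted p = 0.177), NPC_LPC replicate 1 (0.135) or NPC_LPC replicate 2 (0.0636).

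S100a16 is a broadly expressed member of low calcium affinity. Its level was 37.4 and 67.1 CPM in HepLPC replicates 1 and 2, and 20.0 and 18.8 CPM in those of NPC_LPC, 2.70-fold higher by the means. HepLPC replicate 2 was 1.79 times replicate 1, the widest gap between HepLPC replicates among the tested members. The log2 fold change was 1.43 (SE 0.36, edgeR adjusted p = 0.115, DESeq2 adjusted p = 0.00868). Without HepLPC replicate 2 it was 0.95 in the edgeR fit, and the DESeq2 adjusted p without that library was 0.294. DESeq2 also lost the call without NPC_LPC replicate 1 (0.0804) or NPC_LPC replicate 2 (0.127).

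S100a13 takes part in the unconventional release of FGF1 and interleukin-1 alpha, proteins that leave the cell without a signal peptide. It was at 22.8 and 24.1 CPM in replicates 1 and 2 of HepLPC, against 9.93 and 15.1 CPM in the NPC_LPC pair. Here the HepLPC libraries were nearly equal and the spread lay in NPC_LPC. On the log2 scale the fold change was 0.90 (SE 0.35, edgeR adjusted p = 0.214, DESeq2 adjusted p = 0.143).

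S100a1, best known from heart and skeletal muscle as a regulator of the calcium pump of the sarcoplasmic reticulum, was the one tested member with overlapping groups. It was at 51.7 and 51.5 CPM in replicates 1 and 2 of HepLPC, against 52.8 and 39.7 CPM in the NPC_LPC pair. NPC_LPC replicate 1 was the highest of the 4 and replicate 2 the lowest. The log2 fold change was 0.16 (SE 0.26, edgeR adjusted p = 0.756), and it was 0.40 without NPC_LPC replicate 1 and -0.032 without NPC_LPC replicate 2. S100a1 and S100a13 lie head to head on chromosome 3, are transcribed in opposite directions, and their RefSeq spans share 98 bases. The level of S100a13 was 0.398 and 0.384 times that of S100a1 in HepLPC and 0.161 and 0.332 times in NPC_LPC, as FPKM ratios. The strand setting of the counting is not given in the sources used here, so reads from the shared bases may count for either gene.

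S100a4, also named fibroblast-specific protein 1, binds the heavy chain of non-muscle myosin encoded by Myh9. It was the lowest of the tested members, at 7.28 and 7.60 CPM in replicates 1 and 2 of HepLPC, against 4.50 and 2.28 CPM in the NPC_LPC pair. Both HepLPC values were above both NPC_LPC values, and NPC_LPC replicate 2 was at 0.506 times replicate 1. On the log2 scale the fold change was 1.13 (SE 0.53, edgeR adjusted p = 0.278, DESeq2 adjusted p = 0.244). It was 1.72 without NPC_LPC replicate 1 and 0.72 without NPC_LPC replicate 2. Fibroblast and stellate cell genes went both ways. Of 17 such markers, 7 stayed under 1 CPM in every library, Lum, Thy1 and Lrat had no count at all, and their sum was 551 and 691 CPM in HepLPC, against 2583 and 3687 CPM in NPC_LPC, most of it Fbln2. Of the 7 that could be tested, 4 had fitted values above 0 and 3 below, and their median was 0.56 on the log2 scale. edgeR called 0 (1 higher and 1 lower at an unadjusted p under 0.05, against 10.4% and 11.5% of all tested genes). DESeq2 called 1 higher, Reln, and 1 lower, Fbln2 (adjusted p = 0.000799 and 1.58e-10), against 5.39% and 6.27%. Of the 7 tested, both HepLPC libraries lay above both NPC_LPC libraries in 3 (Reln, Des and Pdgfra) and below in 1 (Fbln2). Over all tested genes the shares were 27.9% and 28.6%. Des was at 0.777 and 1.35 CPM in HepLPC, against 0.713 and 0.149 CPM in NPC_LPC. Pdgfra was at 0.666 and 0.958 CPM, against 0.384 and 0 CPM. Reln, Des and Pdgfra were named after their values were seen. The part of fibroblast and stellate cell markers in the S100a4 values was not tested.

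**Figure D2:**
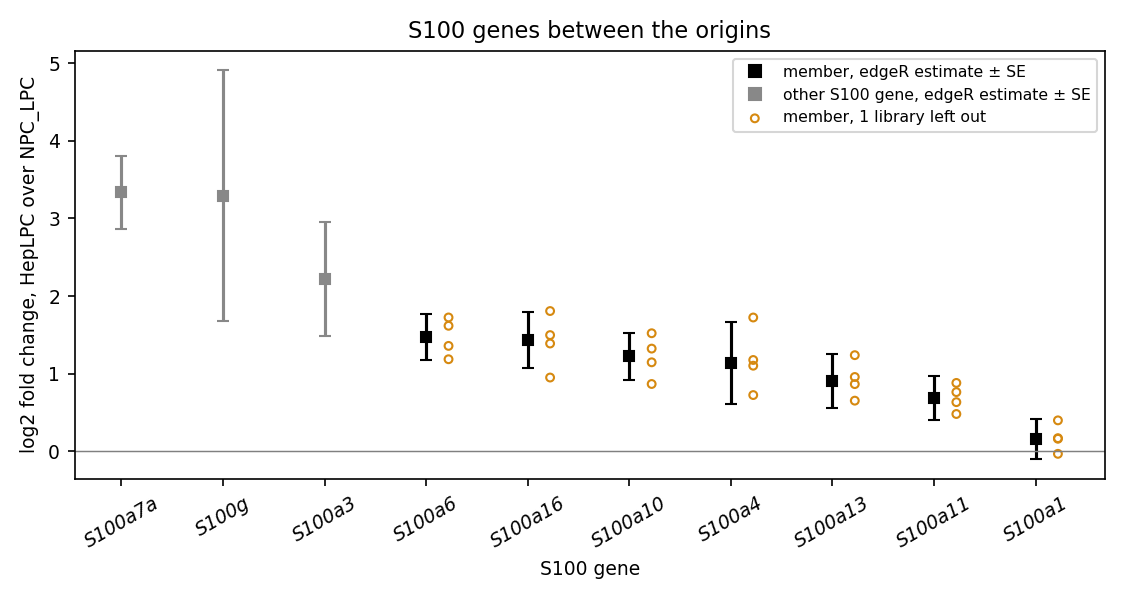
Log2 fold changes of HepLPC over NPC_LPC for the tested S100 genes, squares for the edgeR estimate with its SE, black for members and grey for other S100 genes, and open circles for member estimates with 1 library left out. S100a6 is highest among the members at 1.47, and S100a1 is the one member with an estimate on the other side of 0 when a library is left out.

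Grouped after their values were seen, the tested members showed 2 patterns by how the HepLPC replicates compared. In S100a6, S100a10, S100a11 and S100a16 the CPM of HepLPC replicate 2 was 1.44, 1.56, 1.31 and 1.79 times that of replicate 1. In S100a1, S100a4 and S100a13 it was 0.997, 1.05 and 1.05 times. The former pattern includes all 3 genes that DESeq2 called. Without HepLPC replicate 2 the log2 fold changes were 1.19 for S100a6, 0.87 for S100a10, 0.48 for S100a11 and 0.95 for S100a16 in the edgeR fit. Patterns over 4 libraries are a description with no test. Marker lists of other cell types summed as follows, and their part in the S100 values was not tested. The 12 biliary markers summed to 4786 and 2233 CPM in HepLPC, against 9527 and 4842 CPM in NPC_LPC, with Spp1 alone at 3024 and 904 CPM in the former and 8939 and 4201 CPM in the latter. Of the 9 tested, 4 had fitted values above 0 and 5 below, with a median of -0.59. edgeR called 0 (2 higher and 3 lower at an unadjusted p under 0.05, against 10.4% and 11.5% of all tested genes). DESeq2 called 1 higher and 1 lower, against 5.39% and 6.27%. The keratin genes Krt19, at 1434 and 885 CPM in HepLPC, against 111 and 275 CPM in NPC_LPC, and Krt7, at 103 and 165 CPM against 1.43 and 17.2 CPM, stood opposite to Spp1. The 8 mesothelial markers, which include Krt19, summed to 1955 and 1915 CPM in HepLPC, against 797 and 677 CPM in NPC_LPC. Without Krt19 the groups overlapped, at 521 and 1031 CPM in HepLPC and 686 and 403 CPM in NPC_LPC. The 12 hepatocyte markers, mostly Apob, summed to 4495 and 5293 CPM in HepLPC, against 3215 and 1751 CPM in NPC_LPC. All 7 that could be tested had fitted values above 0, against 49.8% of all tested genes. Their median log2 fold change was 2.65, which stays the same with Apoa1, without a count in NPC_LPC, at its bound. In 6 of the 7 both HepLPC libraries lay above both NPC_LPC libraries, against 27.9% of all tested genes. edgeR called 1 higher, the liver transcription factor gene Cebpa (log2 fold change 4.50, adjusted p = 0.0419), against 0.227%. It had 5 higher at an unadjusted p under 0.05, against 10.4%. DESeq2 called 4 higher, against 5.39%: Cebpa, Hnf4a, Apoa1 and Ttr, all named after their values were seen. The 10 endothelial markers summed to at most 9.11 CPM in any library. The genes most like S100a6, by distance in centred log2 CPM over the 4 libraries among 9115 genes, were Psph, Rpl8 and Fam84b (distances 0.0727, 0.102 and 0.11). Those most like S100a1, the member with the lowest fold change, were Creb3l2, Coq9 and Senp3 (0.0334, 0.0366 and 0.045).

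The remaining 3 members were near the limit of detection. S100a8 and S100a9 form calprotectin, the abundant antimicrobial complex of neutrophils. S100a8 had 16 and 0 counts in HepLPC replicates 1 and 2 and 2 and 0 in those of NPC_LPC, and S100a9 had 7 counts in HepLPC replicate 1 and none elsewhere. Both were thus seen almost entirely in 1 library. Ly6g, a surface protein of neutrophils, had 11 counts in HepLPC replicate 1, 2 in NPC_LPC replicate 1 and none in the others. The neutrophil genes Elane, Mpo, Csf3r, Cxcr2, Camp, Ngp and Retnlg had no count in any library. Ltf had 0 and 2 counts in HepLPC replicates 1 and 2 and 3 and 2 in those of NPC_LPC. Of 22 myeloid markers, 10 had no count in any library, and 19 stayed under 1 CPM throughout. Their sum was 115 and 52.6 CPM in HepLPC, against 237 and 73.2 CPM in NPC_LPC, nearly all of it Cd14 and Cd68. The part of myeloid cells in the S100a8 and S100a9 counts was not tested. S100a14, a member of stratified and intestinal epithelia, had 10 counts in each HepLPC library and 1 and 2 in those of NPC_LPC. Over both libraries that is 20 counts against 3, a ratio of 7.16 with a 95% exact Clopper-Pearson interval of 2.12 to 37.7 that covers counting error only. S100a14 was too low for edgeR, and its DESeq2 adjusted p was 0.387.

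The sequences upstream of S100a11, S100a6 and S100a4 show how differently the most abundant, the most different and the least abundant tested member begin. Promoter windows from RefSeq on GRCm38.p6, 250 bases before to 50 after each start, matched 8 of the 10 members by symbol. They were searched on both strands for TGANTCA (the AP-1 motif), TATAAA (the TATA box), GGGCGG (a GC box) and CCAAT, and no match printed here overlaps another. Below are the bases upstream of any annotated exon, 5′ to 3′ on the plus strand, with matches in capitals. They span chr3:93520246-93520487, chr3:90612644-90612881 and chr3:90603520-90603769.
S100a11: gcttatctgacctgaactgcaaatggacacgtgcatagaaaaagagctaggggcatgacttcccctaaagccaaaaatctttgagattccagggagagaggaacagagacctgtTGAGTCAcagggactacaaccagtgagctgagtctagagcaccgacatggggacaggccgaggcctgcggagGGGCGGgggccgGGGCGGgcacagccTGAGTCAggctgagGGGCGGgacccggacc
S100a6: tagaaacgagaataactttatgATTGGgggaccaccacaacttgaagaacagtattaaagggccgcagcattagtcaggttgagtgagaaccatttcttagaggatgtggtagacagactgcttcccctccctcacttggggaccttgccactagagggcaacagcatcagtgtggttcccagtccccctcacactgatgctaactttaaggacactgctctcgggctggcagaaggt
S100a4: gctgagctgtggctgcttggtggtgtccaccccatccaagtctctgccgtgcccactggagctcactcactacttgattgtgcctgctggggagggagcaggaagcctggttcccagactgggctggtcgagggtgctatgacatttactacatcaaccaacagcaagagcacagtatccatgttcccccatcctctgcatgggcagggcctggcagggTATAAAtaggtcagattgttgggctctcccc
In these windows S100a11 held 2 AP-1 motifs, 136 and 38 bases upstream of its start, and 3 GC boxes, at 64, 52 and 24 bases, and no TATAAA. S100a6 held CCAAT on the minus strand at 228 bases and none of the others. S100a4 held TATAAA at 31 bases, as S100a8 did at 30 bases. S100a9 held TATAAA at its start and a GC box at 223 bases. Of the S100a16 windows, 1 held an AP-1 motif at 192 bases and a GC box at 30. The other S100a16 window and those of S100a1 and S100a13 held none of these motifs. Over 32851 promoter windows of the same length, 7.81% held TGANTCA, 13.6% TATAAA, 35.7% GGGCGG and 37.4% CCAAT. A match is a description of these letters and not a binding site.

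All 10 members lie on chromosome 3, as is usual for this family. S100a1 to S100a9 span 185 kb, and S100a11 and S100a10 lie 2.82 Mb further on, with 28.8 kb between them. Along the 185 kb, genes with higher values stood beside genes that were silent. S100a6, at 615 and 884 CPM in HepLPC, starts close to S100a5, which had no count in any library. The 3 tested genes that flank S100a1 did not pass edgeR, and neither did any tested member. Chtop had a log2 fold change of 0.53 (SE 0.23), Snapin 0.17 (SE 0.27) and Ilf2 0.87 (SE 0.32), with edgeR adjusted p of 0.253, 0.75 and 0.203. Ilf2 was at 208 and 150 CPM in HepLPC, against 76.2 and 120 CPM in NPC_LPC. Chtop was at 96.7 and 113 CPM, against 69.0 and 76.4 CPM. Both were thus higher without overlap, as were 27.9% of all tested genes and most tested members, while Snapin had overlapping groups. Between the S100 groups lie genes of the epidermal cornified envelope, of which Sprr1a was abundant, at 1499 and 1127 CPM in HepLPC, against 990.2 and 464 CPM in NPC_LPC (adjusted p = 0.303). Over 576 tested genes of chromosome 3 the median log2 fold change was 0.12, or 0.09 without the S100 genes, beside the members' 1.13.

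**Figure D3:**
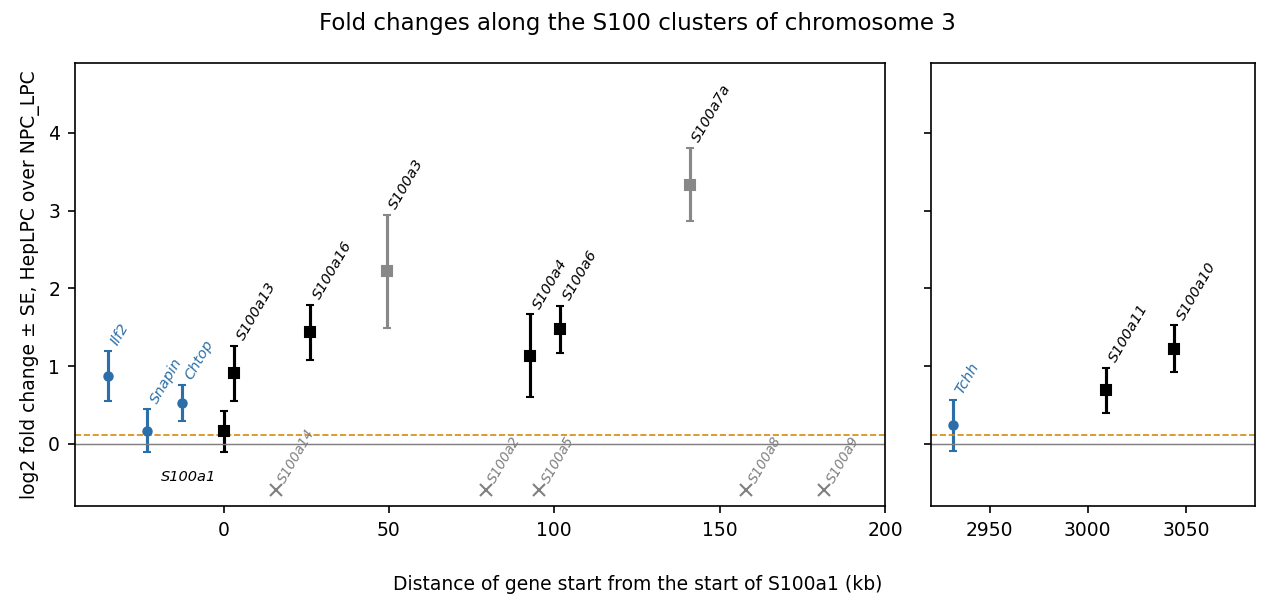
Log2 fold change with SE against the distance of each gene's start from that of S100a1, in kb, in 2 panels for the 2 stretches of chromosome 3. Black squares are members, grey squares other S100 genes, blue circles tested neighbours, crosses S100 genes too low to test, and the dashed line the median of chromosome 3 at 0.12. Every tested S100 gene shown lies above 0, from S100a1 at 0.16 to S100a7a at 3.33.

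The tables hold 17 S100 genes, and of the 7 that are not members, 3 could be tested. S100a7a, a mouse relative of the skin protein psoriasin, had the highest fold change of the S100 genes tested by edgeR. It had 396 and 250 counts in HepLPC replicates 1 and 2 and 38 and 30 in the NPC_LPC pair, with a log2 fold change of 3.33 (SE 0.47, edgeR adjusted p = 0.057, DESeq2 adjusted p = 2.43e-08). DESeq2 called it and edgeR did not. S100g, the vitamin D-dependent calbindin of the intestine, had 125 and 20 counts in HepLPC and 15 and 0 in NPC_LPC. Its log2 fold change of 3.29 (SE 1.61, edgeR adjusted p = 0.297) was within its SE of that of S100a7a. S100a3 had 37 and 71 counts in HepLPC and 9 and 16 in NPC_LPC (edgeR adjusted p = 0.171). The S100a3 span in RefSeq holds S100a2 within it and ends 1063 bases before S100a4, so its few reads could be shared. S100a5 and S100z had no count, S100a2 had 1 count and S100b at most 2 in any library. Of 7 larger genes that carry an S100 domain, such as Flg and Hrnr, 6 had no count. The exception was Tchh, at 14.6 and 13.2 CPM in HepLPC, against 11.4 and 12.2 CPM in NPC_LPC.

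Annexins, the main binding partners, went both ways. Of 12 annexin genes 11 were tested, edgeR called 0 (2 higher and 1 lower at an unadjusted p under 0.05), and DESeq2 called 2 higher and 1 lower. The shares of all genes, for this and the lists that follow, were 0.227% higher and 0.203% lower in edgeR. They were 10.4% and 11.5% at an unadjusted p under 0.05, and 5.39% and 6.27% in DESeq2. The median log2 fold change of the annexins was -0.01. Anxa2, the partner of S100a10, was at 1463 and 1730 CPM in replicates 1 and 2 of HepLPC, against 756 and 949 CPM in the NPC_LPC pair (fold change 0.91 on the log2 scale, SE 0.28, edgeR adjusted p = 0.156, DESeq2 adjusted p = 0.0238). In FPKM its level was 1.81 and 1.42 times that of S100a10 in HepLPC and 1.45 and 1.91 times in NPC_LPC, ranges that overlap. Anxa1, the partner of S100a11, stood the other way, at 272 and 426 CPM in HepLPC, against 537 and 564 CPM in NPC_LPC (fold change -0.66 on the log2 scale, SE 0.30, edgeR adjusted p = 0.273). The other 2 that DESeq2 called, named after their values were seen, were Anxa3 with a log2 fold change of 1.27 and Anxa6 with -1.56 (adjusted p = 0.00735 and 9.14e-06). Anxa11, which binds S100a6, was at 12.9 and 13.1 CPM in NPC_LPC, between the HepLPC values of 6.16 and 18.9 CPM. Anxa5 and Anxa2 were the most abundant annexins by mean FPKM.

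Other partners inside the cell also went both ways. Of 16 genes 15 were tested, with a median of 0.07, and edgeR called 0 (4 higher and 1 lower at an unadjusted p under 0.05). DESeq2 called 2 higher and 1 lower. Fgf1, the growth factor exported with S100a13, was at 101 and 51.3 CPM in replicates 1 and 2 of HepLPC, against 14.4 and 9.01 CPM in the NPC_LPC pair (fold change 2.71 on the log2 scale, SE 0.45, edgeR adjusted p = 0.0736, DESeq2 adjusted p = 8.22e-07). Il1a, the other such cargo, had at most 0.222 CPM in any library. Atp2a2, the calcium pump that S100a1 regulates in muscle, was at 930.3 and 649.5 CPM in HepLPC, against 363 and 454 CPM in NPC_LPC (DESeq2 adjusted p = 0.0377). S100pbp, which encodes an S100-binding protein, was the one called lower, at 29.8 and 21.7 CPM in HepLPC, against 67.8 and 65.0 CPM in NPC_LPC (edgeR adjusted p = 0.084, DESeq2 adjusted p = 0.00174). Atp2a2 and S100pbp were named after their values were seen. Cacybp was at 197 and 157 CPM in HepLPC, against 106 and 117 CPM in NPC_LPC, and its edgeR adjusted p was 0.196. Its partner Sugt1 had overlapping groups. The S100a10 scaffold Ahnak and the S100a4 target Myh9 had log2 fold changes of 0.16 (SE 0.25) and -0.37 (SE 0.32). Myh9 and Stip1 were the most abundant of the list by mean FPKM.

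**Figure D4:**
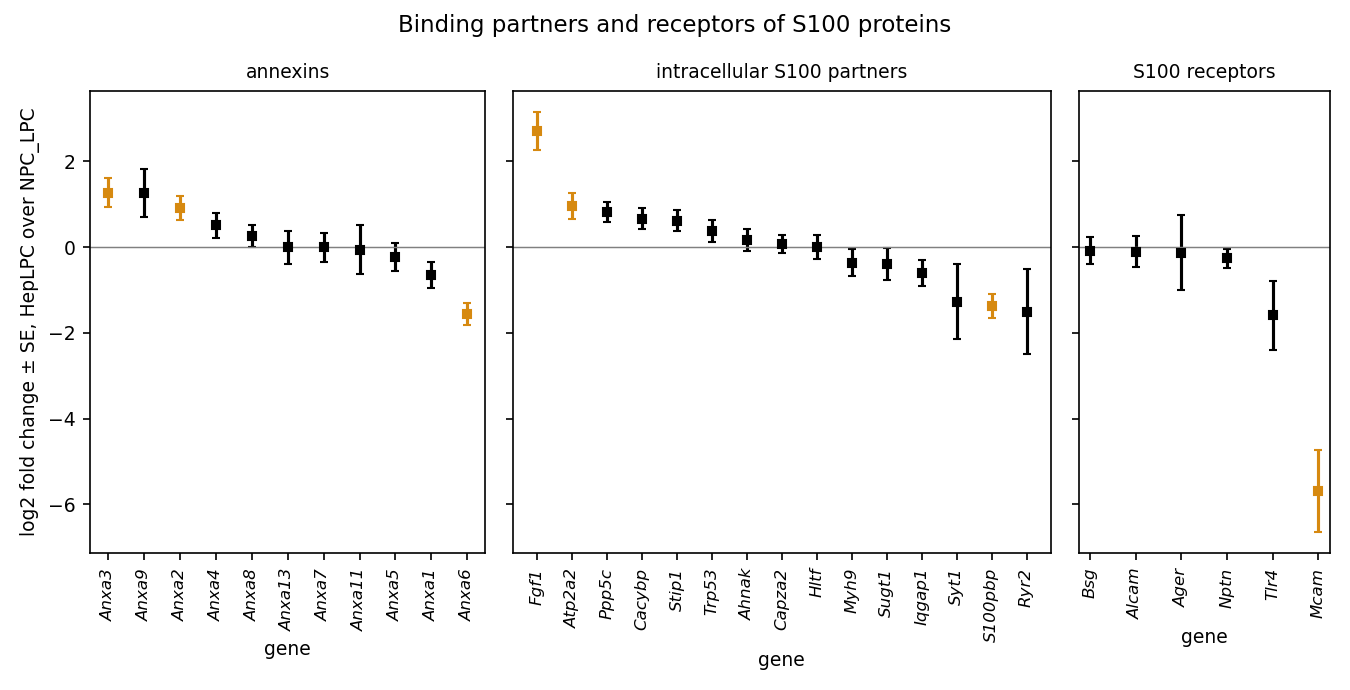
Log2 fold change with SE of tested annexins, intracellular partners and receptors, orange where DESeq2 called the gene and black otherwise. Cd33, with no count in HepLPC, is left out. Fgf1 is highest at 2.71 and Mcam lowest at -5.69.

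Receptors of secreted S100 proteins had fitted values below 0 in all 7 that could be tested of 9, against 6188 of 12332 genes. Their median log2 fold change was -0.26, which stays the same with Cd33 at its bound. The estimates of Bsg (-0.08, SE 0.31), Alcam (-0.11, SE 0.37) and Ager (-0.13, SE 0.87) were smaller in size than their SE. Alcam was named after its values were seen. In 3 of the 7 both HepLPC libraries lay below both NPC_LPC libraries, against 28.6% of all tested genes, and in the rest the groups overlapped. edgeR called 0 of the 7 (0 higher and 2 lower at an unadjusted p under 0.05), and DESeq2 called 0 higher and 2 lower. Ager, the receptor for advanced glycation end products, was at 0.833 and 3.38 CPM in HepLPC, against 3.13 and 1.49 CPM in NPC_LPC, with overlapping groups. Tlr4, a receptor of calprotectin, was at 10.1 and 2.65 CPM in HepLPC, against 29.0 and 9.55 CPM in NPC_LPC (edgeR adjusted p = 0.309). Basigin, encoded by Bsg, was the most abundant of the list, at 547 and 763 CPM in HepLPC, against 804 and 583 CPM in NPC_LPC. Nptn came next by mean FPKM, with a log2 fold change of -0.26 (SE 0.22). The genes that DESeq2 called lower, named after their values were seen, were Mcam and Cd33. Mcam was at 1.39 and 2.08 CPM in HepLPC, against 26.2 and 153 CPM in NPC_LPC (fold change -5.69 on the log2 scale, SE 0.96, edgeR adjusted p = 0.074). Cd33 had no count in either HepLPC library and was at least 24.3-fold lower in HepLPC, taking a floor of 3 counts per library.

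Among 22 other EF-hand genes, 18 were tested, with 9 fitted values above 0, 9 below and a median of -0.003, the same with Calml4 at its bound. edgeR called 0 of them (2 higher and 1 lower at an unadjusted p under 0.05), and DESeq2 called 2 higher and 1 lower. The calmodulin gene Calm2 and the calpain subunit gene Capns1 were the most abundant by mean FPKM, and their log2 fold changes were 0.32 (SE 0.29) and 0.02 (SE 0.27). The genes called by DESeq2, named after their values were seen, were Chp1, Calml4 and Efhd2. Chp1 had a log2 fold change of 1.26 and Efhd2 of -1.39 (DESeq2 adjusted p = 0.00891 and 0.000221). Calml4 had no count in NPC_LPC and was at least 10.4-fold higher in HepLPC.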

How the data were processed

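RNA was sequenced from 4 libraries, 2 HepLPC and 2 NPC_LPC, grouped by title. Stranded, paired-end messenger RNA libraries were made from column-purified RNA, per the labels' protocols. Trimmomatic, HISAT2, Cufflinks, HTSeq and DESeq are named with the build mm10, per the submitters' processing notes, without versions, annotation or strand setting. Per the file headers, the authors gave a read count and an FPKM value for each gene symbol, with 1 table per library.

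The counts were fitted over all genes with edgeR 4.0.16 in R 4.3.3, after TMM scaling and filterByExpr, with group as the only term. SEs were derived from the F statistic. Two-sided p-values received Benjamini-Hochberg adjustment over all tested genes. With 2 libraries against 2 an exact permutation test cannot go below p = 0.333, so none was run. The fit was tested on simulated data. Alternatives used other scalings and filters, DESeq2 1.42.0, limma-voom (limma 3.58.1), a replicate block, left-out libraries and log2 FPKM with a pseudocount of 1 or 0.1. DESeq2 with left-out libraries was added after seeing the data. Positions and promoter windows came from RefSeq on GRCm38.p6. Protein sequences were not used here, so the planned comparison of proteins was not made.

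The members and gene lists were chosen with earlier results of these data known. All members are named. Other S100 genes are named with at least 10 counts in a library, and listed partners if they passed edgeR, are the known partner of a member, or are among the 2 most abundant of their list. Up to 4 genes of a marker list are named, and other genes were chosen after their values were seen. Library totals ranged from 17575998 to 20625957 counts. The labels mention no molecular identifiers, and PCR copies of a molecule count as separate reads, which intervals and floors do not cover.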

Additional observations from a re-analysis of the deposited data

How the results depend on the processing

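Of the tested members, every one kept the direction of its fold change under each alternative except S100a1, whose log2 fold change without NPC_LPC replicate 2 was -0.032 in edgeR and -0.043 in DESeq2, and at most 0.40 (without NPC_LPC replicate 1). The number of members called higher was 0 with other scalings, with a filter of 1 CPM, with limma-voom, with the replicate block and with log2 FPKM. It was 1 (S100a6) without a filter on low counts and 3 with DESeq2, and between 0 and 3 with a library left out, the 1 to 3 coming from DESeq2 alone. No alternative called a member lower. Over all genes, 259 of 15835 were called higher without a filter on low counts and 704 of 13072 with DESeq2.

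The number of genes called over the whole table, 28 higher and 25 lower, moved with the setting. It was 33 and 33 or 34 and 32 with the other scalings, and 34 and 33 with a filter of 1 CPM. It was 259 and 334 without a filter on low counts, 704 and 819 with DESeq2, 2 and 3 with limma-voom, 0 and 0 with log2(FPKM + 1), 1 and 0 with log2(FPKM + 0.1), and 59 and 52 with log2(FPKM + 1) for genes with a mean FPKM of at least 0.5. With a library left out it lay between 0 and 156 higher and between 0 and 221 lower: both were 0 without HepLPC replicate 1 or without HepLPC replicate 2, 156 and 221 without NPC_LPC replicate 1, and 46 and 61 without NPC_LPC replicate 2. The cause was not tested.

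Without a filter on low counts, edgeR called 0 annexins higher and 1 lower, and 1 partner higher and 1 lower. It called 2 receptors lower, and 1 other EF-hand gene higher and 1 lower. Over all genes that fit called 259 higher and 334 lower of 15835. DESeq2 called 2 annexins higher and 1 lower, and 2 partners higher and 1 lower. It called 2 receptors lower, and 2 other EF-hand genes higher and 1 lower. Over all genes it called 704 higher and 819 lower of 13072. With a library left out, edgeR called between 0 and 1 partners higher and between 0 and 1 receptors lower.

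Replicate numbers are shared by the groups, but no label says that they pair the libraries. Across the 12332 tested genes the difference between replicates 1 and 2 in HepLPC and in NPC_LPC had a correlation of -0.0338. With the replicate block, 49 genes of 12332 were called higher and 87 lower, among them 1 partner higher, 1 receptor lower and 0 members.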
